A study of Mus musculus with 4 samples.

Results

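The nuclear genes of oxidative phosphorylation encode most of the subunits of the respiratory chain and of ATP synthase. The members were taken by symbol: genes starting with Ndufa, Ndufb, Ndufc, Ndufs, Ndufv, Uqcr, Cox4i, Cox5, Cox6, Cox7, Cox8 or Atp5, and Sdha to Sdhd, with pseudogene names ending in -ps left out. This gave 93 of the 32285 genes counted. They comprised 36 subunits of complex I, 8 complex I assembly factors (Ndufaf genes), Ndufa4 and Ndufa4l2, 4 subunits of complex II, 8 of complex III, 18 of complex IV and 17 of complex V.

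Oxidative phosphorylation takes place in the inner mitochondrial membrane. Complex I (NADH dehydrogenase) and complex II (succinate dehydrogenase, which also works in the citric acid cycle) pass electrons to ubiquinone, complex III passes them on to cytochrome c, and complex IV (cytochrome c oxidase) passes them to oxygen. Complexes I, III and IV pump protons, and complex V (ATP synthase) uses the gradient to make ATP. Mitochondrial DNA encodes a core of subunits in every complex but complex II, and nuclear genes encode the rest and the assembly factors. In bone marrow, haematopoietic stem cells are known to rely little on this pathway, erythroid precursors carry many mitochondria while they make haem, and mature neutrophils live mostly on glycolysis.

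The cells were CD45.2+ Kit+ mouse bone marrow collected at 10 weeks after transplantation. Kit is the receptor for stem cell factor and marks progenitors, and CD45.2 marks the allele of a leukocyte surface protein. Each of 4 groups gave 1 library, a control and deletions of Mll3, of Mll4 and of Mll3/4 together. Mll3 (gene Kmt2c) and Mll4 (gene Kmt2d) are histone methyltransferases that act at enhancers. The labels used here do not give the strain, the driver of the deletion, the age of the donors or the number of mice pooled. Each cell was read with the 10x Genomics 3′ assay, in which each unique molecular identifier (UMI) stands for 1 captured mRNA end, and with barcoded antibodies.

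Levels are given as CPM, the UMIs of a gene scaled to a common total of gene UMIs. Kmt2c stood at 47.9 CPM in control and at 27.2, 59.2 and 34.8 CPM with Mll3, Mll4 and Mll3/4 given as deleted. Kmt2d stood at 25.8, 21.6, 24.99 and 24.7 CPM in the same order, so it was at nearly the control level where Mll4 or Mll3/4 was given as deleted. These tags lie at the 3′ end of the transcript, and the labels do not say which exons were deleted, so the values do not check the genotypes. Each library is therefore named by its label below (Mll3-labelled and so on). Median depth was 15754 UMIs per kept cell for control and, by label, 16963.5 for Mll3, 5142 for Mll4 and 9965 for Mll3/4. Xist, which is expressed from the inactive X chromosome of females, had 990 CPM in control but only 0.519 CPM in the Mll4-labelled library, so these libraries differed in the sex of the cells as well as in label and depth, and these cannot be told apart. Kit stood at 105 to 190 CPM over the 4 libraries. With 1 library a group no difference has a replicate check, and no test was made. Intervals are exact at 95%, Poisson for CPM and binomial for shares and log2 ratios, and cover counting error only. Bounds given with a median over members are the medians of the members' lower and upper bounds.

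Clusters of cells were named after marker genes as HSC/MPP-like (stem and multipotent progenitor), granulocyte progenitor-like, monocyte/macrophage progenitor-like, neutrophil-like, erythroid progenitor-like, megakaryocyte-like, basophil/mast-like, B-cell progenitor-like and T/NK/innate lymphoid-like. Cluster 11, with 645 control, 416 Mll3-labelled and 120 Mll4-labelled cells, was led by Ccl9, Cd34 and Cebpa and was left unnamed. Control, Mll3-labelled and Mll4-labelled cells could be compared in up to 10 such classes, where both libraries had at least 50 cells. Cells of the Mll3/4-labelled library fell in sufficient number only in the B lineage, 3379 in the B-cell progenitor-like class and 3451 in the unnamed cluster 22. The names were rebuilt from markers here and rest on no annotation by the authors.

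Short stretches of promoter are shown first for members on which the results below turn, taken from RefSeq on build GRCm38.p6 as the 120 bases before the annotated start, 5′ to 3′ on the gene's strand. Atp5k (subunit e of ATP synthase) and Sdha (the flavoprotein of succinate dehydrogenase) were higher in the Mll4-labelled library, and Ndufa8 (an accessory subunit of complex I) was lower in it. Uqcr11 (a small subunit of complex III) and Ndufaf4 (a complex I assembly factor) were the members most above control in Mll3/4-labelled B-cell progenitor-like cells. Cox6b1 and Cox6b2 are the widely expressed and the testis-type isoform of 1 subunit of complex IV. Capitals mark the core read by NRF1 (GCGCA and GCGC with any 1 base between them) or CCGGAAG, the core read by ETS factors such as GABP, on either strand. NRF1 and GABP are known regulators of nuclear respiratory genes.
Atp5k, chr5:108434400-108434519, minus strand: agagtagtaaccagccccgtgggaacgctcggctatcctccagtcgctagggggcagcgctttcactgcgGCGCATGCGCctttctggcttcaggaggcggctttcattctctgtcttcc
Sdha, chr13:74350241-74350360, minus strand: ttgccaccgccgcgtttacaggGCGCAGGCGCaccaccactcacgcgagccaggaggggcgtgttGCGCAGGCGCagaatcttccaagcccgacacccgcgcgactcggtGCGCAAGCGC
Ndufa8, chr2:36049339-36049458, minus strand: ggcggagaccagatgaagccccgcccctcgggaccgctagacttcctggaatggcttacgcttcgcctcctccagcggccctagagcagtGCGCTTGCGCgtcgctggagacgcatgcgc
Uqcr11, chr10:80406822-80406941, minus strand: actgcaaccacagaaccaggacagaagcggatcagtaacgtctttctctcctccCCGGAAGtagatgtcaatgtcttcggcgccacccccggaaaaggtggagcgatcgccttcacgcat
Ndufaf4, chr4:24897963-24898082, plus strand: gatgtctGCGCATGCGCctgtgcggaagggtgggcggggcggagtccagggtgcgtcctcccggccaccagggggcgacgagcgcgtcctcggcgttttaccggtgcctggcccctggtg
Cox6b1, chr7:30626115-30626234, minus strand: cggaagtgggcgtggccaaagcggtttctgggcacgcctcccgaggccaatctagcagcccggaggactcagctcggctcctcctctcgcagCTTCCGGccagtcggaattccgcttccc
Cox6b2, chr7:4753095-4753214, minus strand: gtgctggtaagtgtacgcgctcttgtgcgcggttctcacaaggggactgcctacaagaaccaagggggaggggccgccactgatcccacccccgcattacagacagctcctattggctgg

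Of the 93 members, 75 had a promoter in the RefSeq table, counted from 250 bases before to 50 after the start. The NRF1 core occurred on either strand in 18 of these (24%), against 4.78% of all 27025 promoters of the same length and 6.60% of the 17492 of protein-coding genes. The ETS core occurred in 18 members (24%), against 9.12% of all and 11.9% of coding promoters, and a core read by YY1 (AAGATGG followed by CGG) in 5 members (6.67%) against 0.899% and 1.27%. AGATAA, read by GATA factors, occurred in 6 members (8.0%) against 11.4% of all and 9.96% of coding promoters. TATAAA occurred in 8 members (10.7%) against 14.2% and 13.3%. Members higher (Atp5k, Sdha) and lower (Ndufa8) in the Mll4-labelled library both carried the NRF1 core. A match is a description of these letters and not evidence of binding.

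In control cells, the share of all gene UMIs that came from the 93 members was lowest in neutrophil-like cells and highest in erythroid progenitor-like cells. It was 1.35% in neutrophil-like, 1.94% in basophil/mast-like, 1.99% in T/NK/innate lymphoid-like, 2.10% in HSC/MPP-like, 2.33% in cluster 11, 2.40% in B-cell progenitor-like, 2.46% in megakaryocyte-like, 2.57% in monocyte/macrophage progenitor-like, 2.63% in granulocyte progenitor-like and 3.07% in erythroid progenitor-like cells. Each library had been labelled with 2 hashtag antibodies whose meaning the labels do not give, and the cells of each hashtag were read separately as a description of spread, not as replicates. The control pools gave 2.08 and 2.13% in HSC/MPP-like, 3.08 and 3.07% in erythroid progenitor-like, 1.36 and 1.35% in neutrophil-like, 2.37 and 2.43% in B-cell progenitor-like, 2.49 and 2.64% in monocyte/macrophage progenitor-like and 2.58 and 2.67% in granulocyte progenitor-like cells. The difference between neutrophil-like, HSC/MPP-like and erythroid progenitor-like cells was thus far larger than that between the pools, whereas neighbours such as monocyte/macrophage progenitor-like and granulocyte progenitor-like cells overlapped. In neutrophil-like cells the 10 neutrophil markers alone summed to 374657 CPM. The share of a class is a share of its captured RNA and not an amount per cell.

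**Figure D1:**
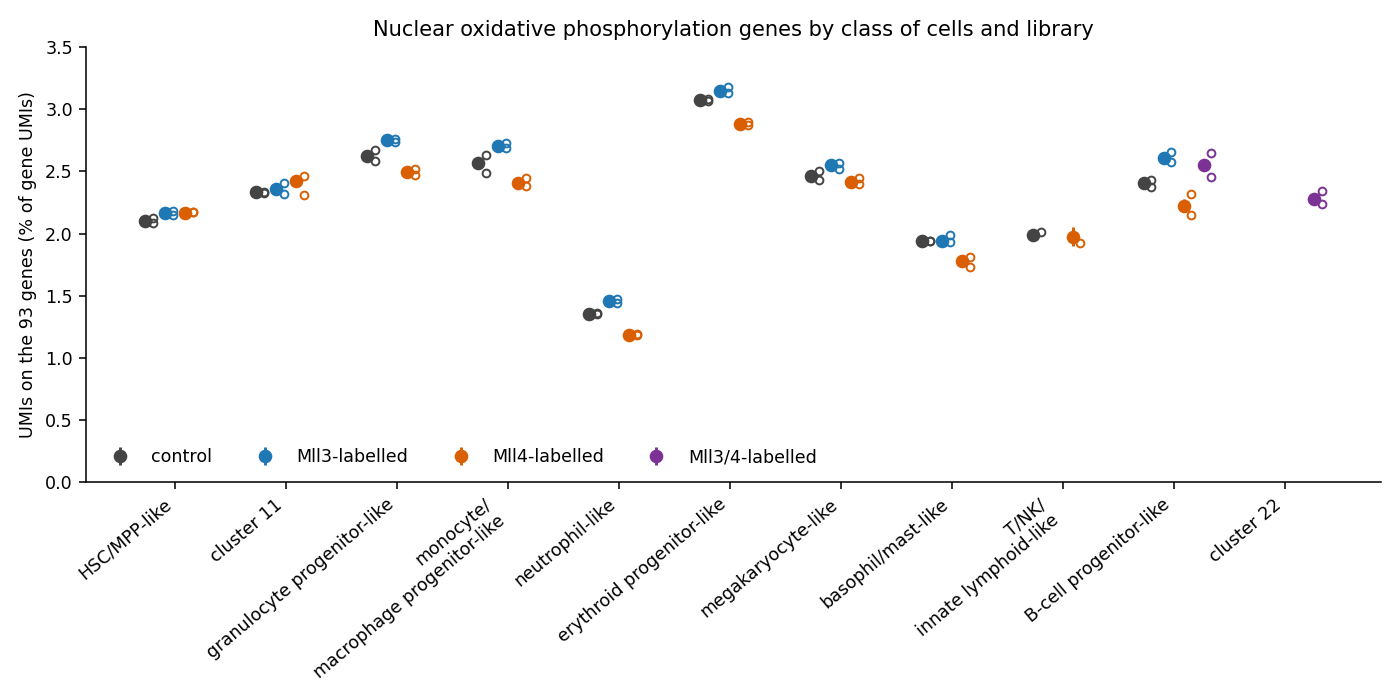
Share of all gene UMIs that came from the 93 nuclear genes of oxidative phosphorylation (y axis, percent) in each cell class (x axis) and library (colours). Filled points are whole libraries with exact counting intervals, and open points the cells of each hashtag. Erythroid progenitor-like cells stand highest (3.07% in control) and neutrophil-like cells lowest (1.35%) in control, and the Mll4-labelled points lie below control in both.

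The order of the complexes was not the same in every class. In control erythroid progenitor-like cells complex V made up 1.03% of UMIs, complex I 0.865%, complex IV 0.690%, complex III 0.296%, complex II 0.0714% and the assembly factors 0.049%. In HSC/MPP-like cells complex V made up 0.684%, complex I 0.599% and complex IV 0.482%, and in neutrophil-like cells 0.404%, 0.43% and 0.35%, so complex I came above complex V in neutrophil-like cells. Transcripts of the 13 mitochondrially encoded genes ranged from 1.04% of UMIs in neutrophil-like to 3.91% in monocyte/macrophage progenitor-like cells, and did not follow the nuclear members in peaking in erythroid cells. The mitochondrial ribosome, which translates those transcripts, followed the nuclear members at these ends, with 1.22% in erythroid progenitor-like and 0.345% in neutrophil-like cells.

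Cox4i1, the widely expressed form of subunit 4 of complex IV (chr8:120668222-120674207, plus strand, GENCODE M21 on GRCm38), had the most counts of complex IV in all 10 control classes, from 621 CPM in neutrophil-like to 1100 CPM in erythroid progenitor-like cells. CPM of 3′ tags counts 1 end per transcript and was not divided by length. Uqcrh, the hinge subunit of complex III, led its complex in all 10 classes, at 252 to 704 CPM. Leadership of complex V differed by class. Among the 3 genes for subunit c of the rotor, Atp5g1 stood at 1240 CPM in erythroid progenitor-like cells, 429 in HSC/MPP-like, 335 in B-cell progenitor-like and 113 in neutrophil-like cells, whereas Atp5g2 stood at 813, 799, 814 and 306 CPM. Atp5g1 was therefore the leading complex V member in erythroid and granulocyte progenitor-like cells and Atp5g2 in HSC/MPP-like, B-cell progenitor-like and megakaryocyte-like cells. Atp5h, a peripheral stalk subunit, led in neutrophil-like cells at 558 CPM. In complex I, Ndufb9 led in 6 classes, with 347 CPM in HSC/MPP-like and 566 CPM in erythroid progenitor-like cells, and Ndufb7 led in neutrophil-like cells at 387 CPM. Ndufa4, once assigned to complex I and now to complex IV, ranged from 337 to 926 CPM, and Ndufaf4 was the leading assembly factor in erythroid progenitor-like cells at 124 CPM.

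The isoforms known from muscle, lung or testis were mostly at or near 0. Cox7b2 and Ndufa4l2 had no count in any compared class, which allows up to 3 counts in each library, Cox8b and Cox8c reached 0.142 and 0.014 CPM in 1 class each, and Cox4i2 (lung) stayed at or below 3.4 CPM. Cox6a2, the heart and muscle form of subunit 6a, stood at 8.36 CPM in control cluster 11 and at 13.3 CPM, from 4 counts, in control T/NK/innate lymphoid-like cells (interval 3.63 to 34.1), so these could not be ranked, against 159 CPM for the widely expressed Cox6a1 in cluster 11. Cox6b2 was the exception. It stood at 120 CPM in control erythroid progenitor-like, 93.4 in basophil/mast-like, 51.6 in monocyte/macrophage progenitor-like, 51.1 in HSC/MPP-like, 24.7 in neutrophil-like and 17.0 in B-cell progenitor-like cells. Cox6b1, the widely expressed form, stood at 560, 352, 474, 381, 249.2 and 458 CPM in the same classes, so Cox6b2 was the minor form in each of them and came closest to Cox6b1 in basophil/mast-like cells. The hashtag pools of control erythroid progenitor-like cells gave Cox6b2 at 123 and 118 CPM.

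Between the Mll3-labelled and the control library the members differed little. The median log2 ratio (log2 of CPM plus 1, Mll3-labelled over control) lay between 0.006 and 0.13 in the 9 classes with enough cells; it was 0.11 in neutrophil-like cells, with medians of the members' lower and upper interval bounds at 0.02 and 0.19, and 0.13 (-0.04 to 0.29) in B-cell progenitor-like cells. Over cells called G1 it turned below 0 in HSC/MPP-like cells (-0.011), erythroid progenitor-like cells (-0.066) and, at the closest to 0, cluster 11, and after thinning in basophil/mast-like cells (-0.021). From the members came 2.16% of UMIs in HSC/MPP-like, 3.15% in erythroid progenitor-like, 1.45% in neutrophil-like and 2.61% in B-cell progenitor-like cells, above the 2.10, 3.07, 1.35 and 2.40% of control. Counting a member as higher or lower where the log2 ratio reached 0.5 in size and either library had at least 20 counts, 1 to 5 members were higher and 0 or 1 lower among the 84 to 88 measured in each class. The share of all genes called by the same rule stands beside each count. HSC/MPP-like cells had 2 members higher and 1 lower (all genes: 2.41% higher and 5.02% lower) and cluster 11 had 1 and 1 (2.4% and 4.24%). Granulocyte progenitor-like cells had 1 and 0 (2.03% and 4.21%), monocyte/macrophage progenitor-like cells 2 and 0 (3.71% and 6.28%) and neutrophil-like cells 3 and 0 (2.73% and 3.2%). Erythroid progenitor-like cells had 2 and 0 (1.1% and 3.56%) and megakaryocyte-like cells 2 and 0 (2.85% and 5.85%). Basophil/mast-like cells had 5 and 1 (5.87% and 14.6%) and B-cell progenitor-like cells 1 and 0 (2.84% and 11.5%). Among genes of at least 100 CPM in either library, to which many members belong, 0.756 to 2.8% were higher and 0.576 to 4.47% lower. As shares of the members measured, the lower calls (at most 1.19%) came below those of all genes in every class. With 0 or 1 member per class, they could not be told from the 0.576 to 4.47% among genes of at least 100 CPM. The higher calls made up 1.15 to 5.95% of the members. With 1 to 5 members per class, they were too few to be told from the shares of all genes. Of 88 members, 78 were past this fold in no class.

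Atp5k (chr5:108433244-108434448, minus strand) was higher in all 9 classes, by 0.51 to 0.65. In HSC/MPP-like cells it had 119 CPM in control and 183 CPM with the Mll3 label (log2 ratio 0.63, interval 0.53 to 0.72), and in erythroid progenitor-like cells it had 212 and 303 CPM (0.51, 0.48 to 0.54). The pools of HSC/MPP-like cells gave 121 and 114 CPM for control and 182 and 186 with the Mll3 label, so the libraries did not overlap. No other member was past the fold in more than 2 classes. Cox6b2 was higher in erythroid progenitor-like cells, at 174 CPM over 120 in control (0.53, 0.49 to 0.57), and in basophil/mast-like cells, at 141 over 93.4 CPM (0.59, 0.15 to 1.02). In neutrophil-like cells 2 assembly factors were higher, Ndufaf5 by 0.70 and Ndufaf2 by 0.55. Cox6a2 was lower in cluster 11, at 8.36 and 4.55 CPM (-0.75, -1.27 to -0.25).

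Small differences had the same sign in many classes. Sdhd, a membrane anchor of complex II, stood at 112 CPM in control and 91.6 in Mll3-labelled HSC/MPP-like cells (-0.29, -0.40 to -0.17) and at 280 and 220 CPM in erythroid progenitor-like cells (-0.34, -0.37 to -0.31), and was below control in all 9 classes without reaching the fold. With trimmed-mean scaling it was above 0 in 1 of them. The median of complex II was below 0 in 8 of the 9 classes, but with trimmed-mean scaling in 7, and those of complexes III and IV were above 0 in all 9 under both. Uqcrq, a small subunit of complex III, stood at 219 and 293 CPM in HSC/MPP-like cells (0.42, 0.35 to 0.49) and was above control in all 9 classes.

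Between the Mll4-labelled and the control library members were past the fold in both directions. So were all genes, of which 15.7 to 32.3% were higher and 7.01 to 26.2% lower per class. By member, 7 were higher and 11 lower in at least 8 of the 10 classes, a count not made over all genes. The median log2 ratio was -0.03 (bounds -0.20 to 0.17) in HSC/MPP-like cells, -0.008 (-0.29 to 0.31) in cluster 11 and -0.14 (-0.81 to 0.59) in T/NK/innate lymphoid-like cells. It was -0.15 (-0.34 to 0.01) in megakaryocyte-like, -0.18 (-0.38 to 0.01) in granulocyte progenitor-like and -0.18 (-0.60 to 0.16) in B-cell progenitor-like cells. In basophil/mast-like cells it was -0.23 (-0.59 to 0.22). The bounds of all these classes lay on both sides of 0. Both bounds were below 0 in monocyte/macrophage progenitor-like (-0.20, -0.36 to -0.04), erythroid progenitor-like (-0.23, -0.31 to -0.16) and neutrophil-like cells (-0.31, -0.42 to -0.18). The medians of HSC/MPP-like cells and cluster 11 turned above 0 after thinning (0.015 and 0.037), so neither has a settled direction. The share of UMIs was 2.88% in erythroid progenitor-like cells against 3.07% in control, 1.19% against 1.35% in neutrophil-like and 2.40% against 2.57% in monocyte/macrophage progenitor-like cells, but 2.17% against 2.10% in HSC/MPP-like cells and 2.42% against 2.33% in cluster 11. With mitochondrially encoded and cytosolic ribosomal protein genes left out of the total, the last 2 turned to 3.14% against 3.28% and 3.48% against 3.72%. The pools gave 2.88 and 2.90% for the Mll4-labelled erythroid progenitor-like cells and 1.19 and 1.19% for the neutrophil-like cells, outside the control pools. Neutrophil-like cells of these libraries lay in different clusters, 1917 and 699 of the Mll4-labelled cells in clusters 16 and 19 and 1257 and 452 of the control cells in clusters 9 and 13. Within each of these clusters 1 of the libraries had under 50 cells. The Mll4-labelled and control shares were 1.25 and 1.37% in cluster 9, 1.11 and 1.31% in cluster 13 and 1.20 and 1.38% in cluster 16. Cluster 19 went the other way, with 1.14 and 0.955%.

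Of the 73 to 88 members measured, 6 to 18 were higher and 15 to 28 lower by the fold rule. The share of all genes called in the same direction is given beside each count. HSC/MPP-like cells had 18 members higher and 15 lower (all genes: 21.7% and 12.2%), cluster 11 had 16 and 15 (28.6% and 14.5%) and megakaryocyte-like cells 13 and 17 (22.4% and 12.4%). Granulocyte progenitor-like cells had 11 and 21 (32.3% and 11.2%) and monocyte/macrophage progenitor-like cells 11 and 20 (29.3% and 10.6%). The balance was furthest to the lower side in neutrophil-like cells with 6 and 28 (15.7% and 12.3%) and in erythroid progenitor-like cells with 8 and 21 (22.3% and 7.01%). Basophil/mast-like cells had 12 and 23 (30.6% and 16.9%), B-cell progenitor-like cells 14 and 22 (27.1% and 19.9%) and T/NK/innate lymphoid-like cells 15 and 20 (21.1% and 26.2%). As shares of the members measured, 7.0 to 20.5% were higher and 17.0 to 32.6% lower. Among all genes of at least 100 CPM, 19.2 to 31.8% were higher and 10.9 to 22.3% lower. The median ratio of all genes was itself between -0.059 and 0.26. Scaling by the trimmed mean of ratios in place of totals lowered every log2 ratio by 0.0965 to 0.333. With it 4 to 9 members were higher and 29 to 45 lower per class, and the shares of all genes with it were not counted.

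**Figure D2:**
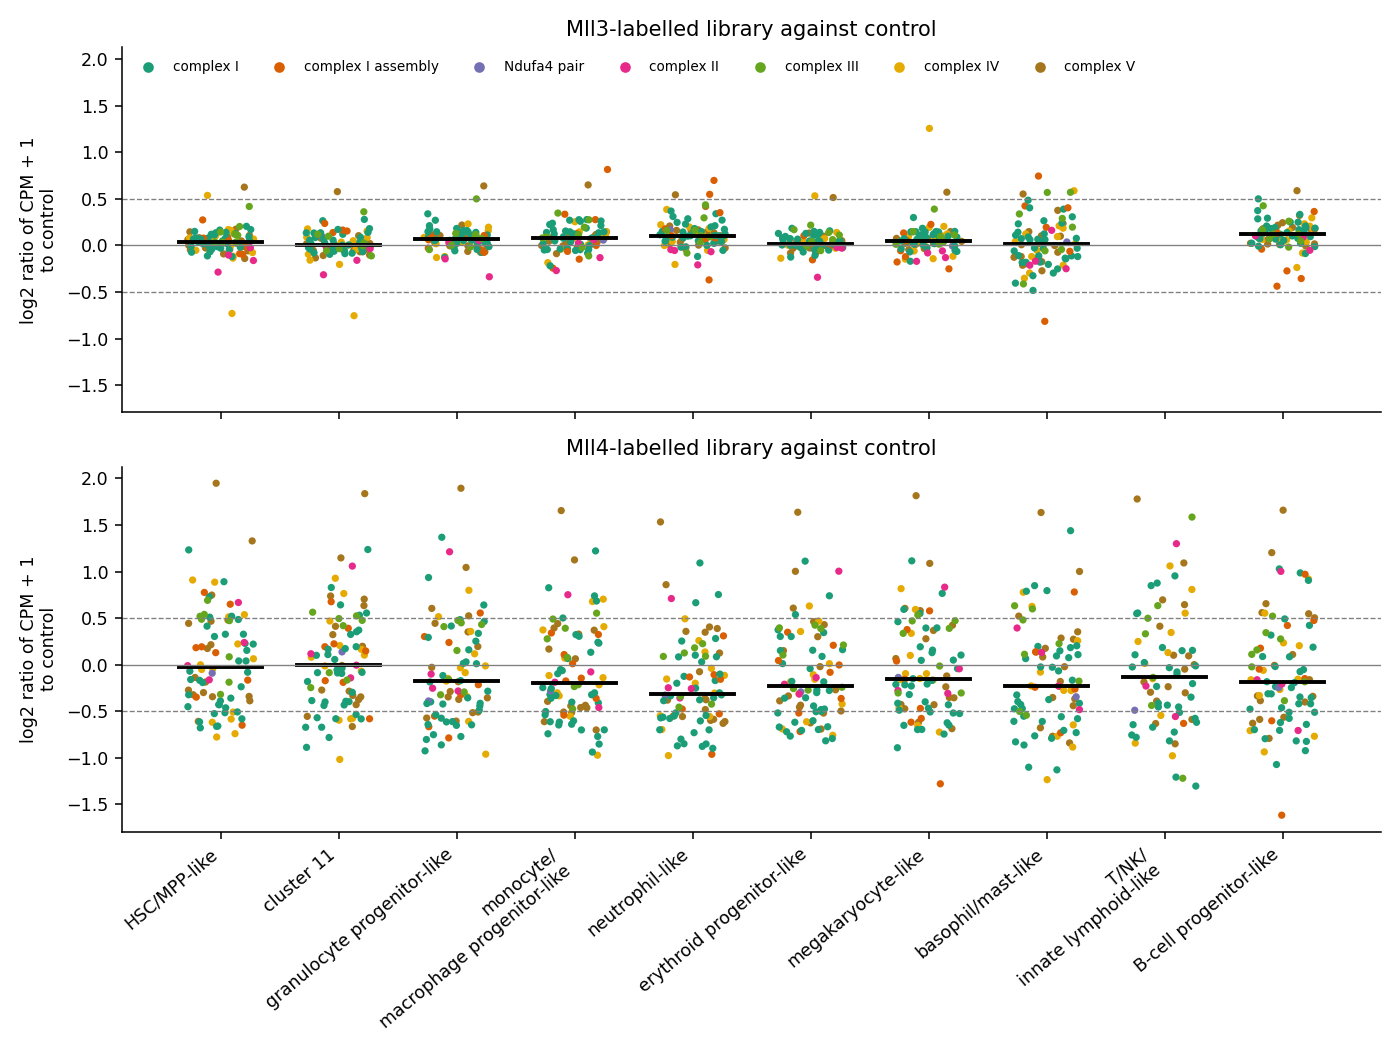
Log2 ratio of CPM plus 1 against control (y axis) by cell class (x axis), with 1 point per measured member coloured by complex, a black bar at the median and dashed lines at the fold of 0.5; the upper panel is the Mll3-labelled and the lower the Mll4-labelled library. Most Mll3-labelled points lie within the dashed lines, with Atp5k at 0.51 to 0.65 and the thinly counted Cox4i2 at 1.26 in megakaryocyte-like cells, and the Mll4-labelled points spread to both sides, with Atp5k at 1.53 to 1.95.

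The members highest above control in the Mll4-labelled library were 3 small subunits. Atp5k was past the fold in all 10 classes, at 1.53 to 1.95. It stood at 460 CPM in Mll4-labelled HSC/MPP-like cells, against 119 in control (1.95, 1.84 to 2.06), at 661 against 212 in erythroid progenitor-like, 271 against 93.2 in neutrophil-like and 549 against 173 in B-cell progenitor-like cells. The pools of Mll4-labelled HSC/MPP-like cells gave 483 and 424 CPM, and those of erythroid progenitor-like cells 667 and 653 CPM against 210 and 214 in control, with no overlap. Atp5md, another small membrane subunit of ATP synthase, was higher in 10 classes by 0.86 to 1.33, at 333 against 132 CPM in HSC/MPP-like cells, and Ndufa3, a small accessory subunit of complex I, in 10 classes by 0.88 to 1.44, at 220 against 93.04 CPM. These 3 were also past the fold in all 10 classes with trimmed-mean scaling.

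Some larger subunits were past the fold above control as well. Sdha (chr13:74322254-74350280, minus strand) was past the fold in 9 of 10 classes, with 189 CPM in the Mll4-labelled library against 119 in control HSC/MPP-like cells (0.67, 0.52 to 0.81) and 274 against 136 in erythroid progenitor-like cells (1.004, 0.93 to 1.07). The other 3 subunits of complex II did not follow: Sdhb stood at 97.5 against 109 CPM, Sdhc at 87.1 against 73.7 and Sdhd at 111 against 112 in HSC/MPP-like cells. Ndufs1, the largest subunit of complex I and a carrier of its iron-sulphur clusters, was higher in 9 classes by 0.74 to 0.94, at 89.1 against 47.6 CPM in HSC/MPP-like cells, and stood at 49.5 against 56.6 CPM in T/NK/innate lymphoid-like cells, where counts were few. Other core subunits of complex I went the other way, Ndufs3 being lower in 8 classes, Ndufs7 and Ndufs8 in 7 each and Ndufv2 in 5, and Ndufv1 was higher in none. Cox7c, a small subunit of complex IV, was past the fold in 9 classes, at 856 against 455 CPM in HSC/MPP-like cells (0.91, 0.84 to 0.98). With trimmed-mean scaling Sdha was past the fold in 8 classes, Ndufs1 in 7 and Cox7c in 5.

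The members lower in the Mll4-labelled library included some of the most abundant subunits, but other abundant members were above control. Atp5a1 and Atp5b of complex V, at 557 and 831 CPM over all control cells, were above control in all 10 classes. Atp5a1 was so by 0.18 to 0.70, past the fold in 6 classes, and Atp5b by 0.10 to 0.63, past it in 3. Ndufb9 (chr15:58933756-58939488, plus strand), an accessory subunit of the membrane arm of complex I, was lower in 10 classes by -1.21 to -0.65, with 217 CPM against 347 in HSC/MPP-like cells (-0.68, -0.81 to -0.55) and 332 against 566 in erythroid progenitor-like cells. Its pools in HSC/MPP-like cells gave 221 and 212 CPM against 345 and 354 in control. Cox5a (chr9:57521274-57532426, plus strand), a matrix-facing subunit of complex IV, was lower in 10 classes by -0.98 to -0.58, at 279 against 429 CPM in HSC/MPP-like and 415 against 702 in erythroid progenitor-like cells. Cox4i1 was lower by 0.54 to 0.71 in size, with 576 against 863 CPM in HSC/MPP-like and 719 against 1100 in erythroid progenitor-like cells. Thus the member with the most counts of complex IV was lower in every class compared while Cox7c of the same complex was higher. Ndufa8 stood at 126 against 200 CPM in HSC/MPP-like cells and at 87.3 against 185 in B-cell progenitor-like cells, and Atp5d, a subunit of the central stalk of ATP synthase, at 260 against 397 in HSC/MPP-like cells. Ndufb5, Ndufb8, Ndufb10, Ndufb11, Ndufab1 and Ndufs3 were each lower in at least 8 classes.

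**Figure D3:**
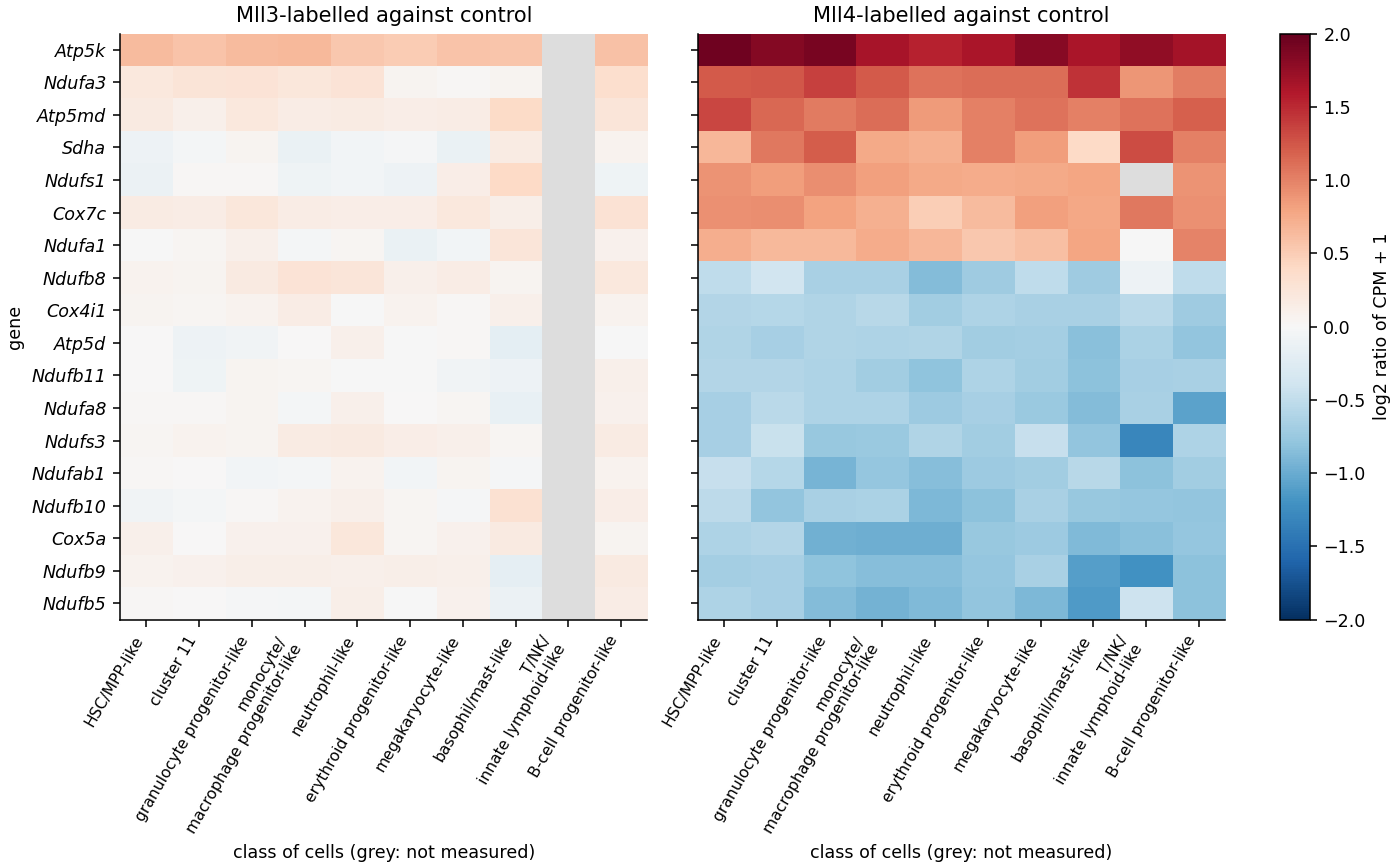
Log2 ratio of CPM plus 1 over control (colour, red above and blue below 0, grey not measured) in the Mll3-labelled (left) and Mll4-labelled (right) library, by cell class (x axis), for the members past the fold in at least 8 classes of the Mll4-labelled library (y axis). In the right panel Atp5k, Ndufa3, Atp5md, Sdha, Ndufs1, Cox7c and Ndufa1 form the side above control and the other members shown, among them Ndufb9, Cox5a, Cox4i1 and Ndufa8, the side below it.

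By complex, the medians in the Mll4-labelled library were below 0 in all 10 classes for complex I (-0.385 to -0.087) and for complex V (-0.394 to -0.008), and above 0 in all 10 for complex III (0.090 to 0.480). With trimmed-mean scaling those of complexes I and V remained below 0 in all 10 classes, and that of complex III was above 0 in only 4. Complexes II and IV had medians above 0 in 2 classes each and in none with trimmed-mean scaling. Of 88 members measured in at least 1 class, 15 were past the fold in none of the 10 classes. There were 2 members past it in opposite directions in different classes. Cox6b2 stood at 83.2 against 51.6 CPM in monocyte/macrophage progenitor-like cells (0.68, 0.42 to 0.94) and 74.7 against 51.1 in HSC/MPP-like cells (0.54, 0.30 to 0.77), but at 39.1 against 93.4 in basophil/mast-like (-1.23, -1.93 to -0.59), 74.1 against 120 in erythroid progenitor-like (-0.69, -0.82 to -0.56) and 16.5 against 24.7 in neutrophil-like cells. The 8 basophil/mast markers summed to 3832 CPM in control and 18023 CPM in Mll4-labelled cells of the basophil/mast-like class, with none at 0, and their part in this difference was not tested. Ndufaf1 was the other, at 37.5 against 23.1 CPM in cluster 11 and 3.5 against 5.59 in neutrophil-like cells.

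**Figure D4:**
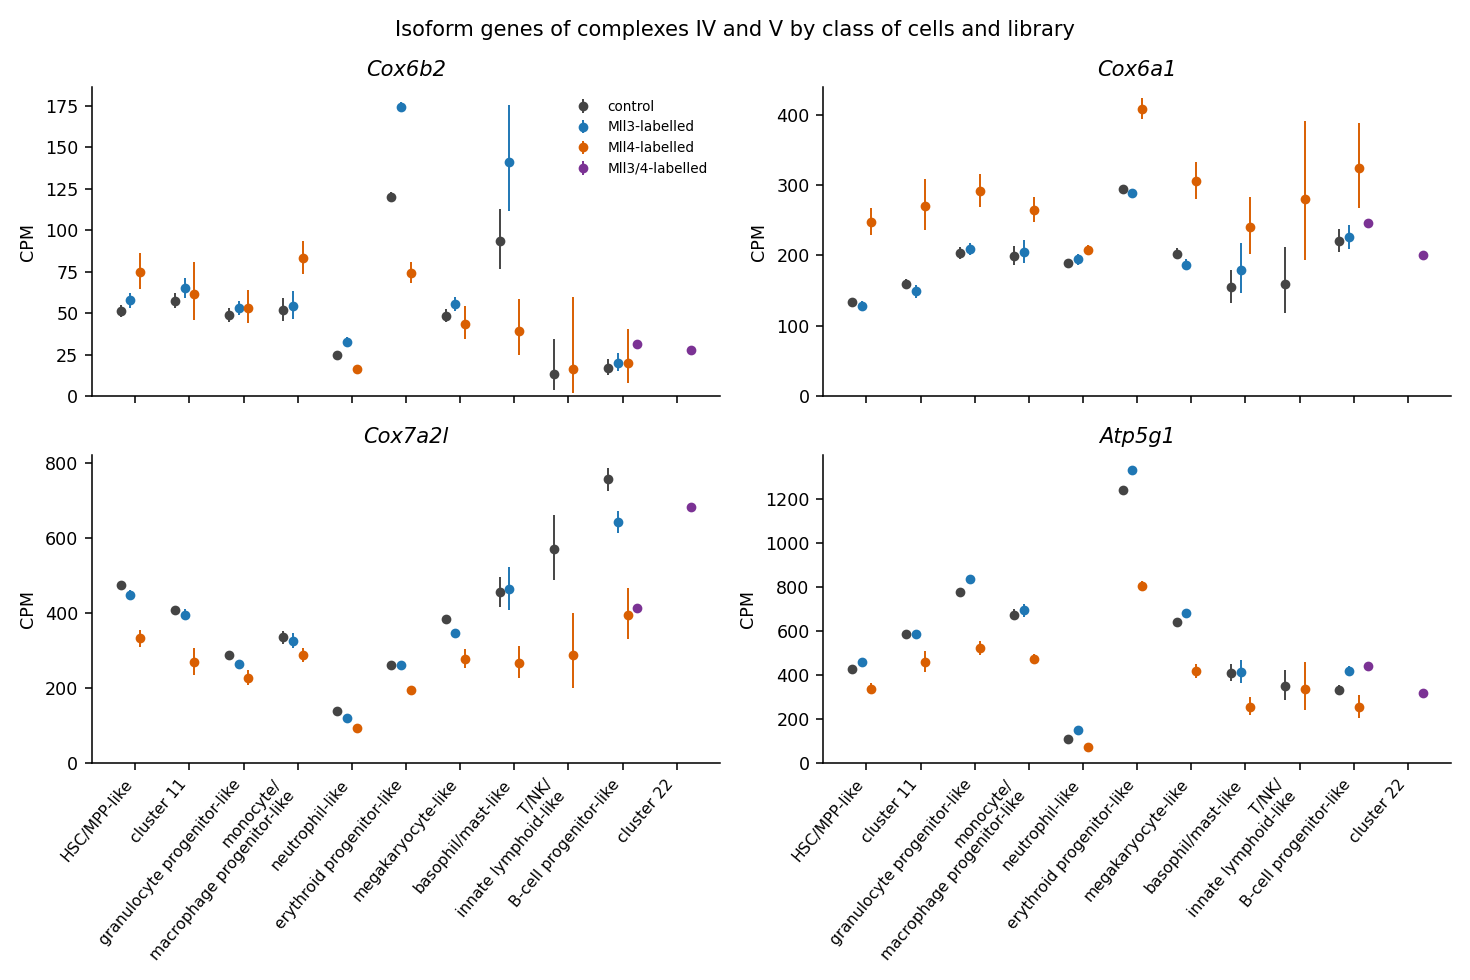
Level (y axis, CPM, linear, a scale of its own in each panel) of Cox6b2, Cox6a1, Cox7a2l and Atp5g1 by cell class (x axis), with 1 point per library and exact counting intervals. Cox6b2 in erythroid progenitor-like cells stands at 120 CPM for control, at 174 for the Mll3 label and at 74.1 for the Mll4 label, and Cox7a2l in B-cell progenitor-like cells at 756 CPM for control and at 414 for the Mll3/4 label.

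Depth, sex, cell cycle and neutrophil transcripts also differed between these 2 libraries. The 10 neutrophil markers summed to 1228 CPM in control, 1018 in Mll3-labelled and 3341 in Mll4-labelled HSC/MPP-like cells, with Mll4-labelled cells holding 1 marker at 0, and to 649, 561 and 3346 CPM in erythroid progenitor-like cells with none at 0. Cells called G1 after thinning to 2000 UMIs made up 65.2% of control and 47.8% of Mll4-labelled HSC/MPP-like cells (49.7 and 30.9% before thinning). In erythroid progenitor-like cells they made up 45.3 and 32.8%, but 9.0 and 13.5% before thinning, so the direction turned. In neutrophil-like cells they made up 11.5 and 18.97% (7.58 and 18.5% before thinning). That was the 1 class of 10 with the larger Mll4-labelled share after thinning. Before thinning that share was also the larger in monocyte/macrophage progenitor-like (27.0 and 41.9%) and basophil/mast-like cells (68.75 and 75.6%). The part of depth, sex, cell cycle and these markers in the differences of the members was not tested. The X-linked members did not move together: Ndufa1 stood at 99.6 CPM in control and 166 in Mll4-labelled HSC/MPP-like cells, Cox7b at 278 and 324, and Ndufb11 at 256 and 171. Ndufa1 was past the fold in 9 classes, in 4 with trimmed-mean scaling. The longest annotated transcripts of the higher members ran from 371 bases (Atp5k) and 515 (Ndufa3) to 2661 (Ndufs1), 2733 (Atp5md) and 2900 (Sdha), around a median of 875 over the 93 members.

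Related gene lists in the same library differed in direction. Genes of the cytosolic ribosome had medians of -0.714 to -0.357 over the 10 classes and those of the mitochondrial ribosome -0.534 to -0.246, below 0 under both scalings. The citric acid cycle (0.184 to 0.530), glycolysis (0.193 to 0.558) and mitochondrially encoded genes (0.099 to 0.318) had medians above 0 in all 10 classes, which held with trimmed-mean scaling in 9, 9 and 2 classes. In HSC/MPP-like cells the largest ratios over all the other lists included those of mt-Atp8 (2.42) and mt-Nd3 (2.06), which encode short subunits of complexes V and I, of Rps29 (1.84) and Rps28 (1.79) of the small ribosomal subunit, and of Pet100 (1.47), an assembly factor of complex IV. Mrps24 of the mitochondrial ribosome and Rpl9 of the cytosolic ribosome were both at -0.92. In the Mll3-labelled library mt-Nd4l (0.77) and mt-Atp8 (0.72) were past the fold in HSC/MPP-like cells, and the mitochondrially encoded genes had medians above 0 in all 9 classes (0.065 to 0.552).

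All 4 libraries could be compared in 1 named class, that of B-cell progenitor-like cells, and there the Mll3/4-labelled library differed from control in a few members. The members made up 2.40% of UMIs in control, 2.61% in Mll3-labelled, 2.23% in Mll4-labelled and 2.55% in Mll3/4-labelled cells. The pools gave 2.37 and 2.43%, 2.58 and 2.66%, 2.15 and 2.32%, and 2.45 and 2.65% in that order, so the Mll3-labelled and Mll3/4-labelled libraries overlapped and the lower Mll3/4-labelled pool lay near the upper control pool. In cluster 22 the share was 2.28%, with pools at 2.24 and 2.34%. With mitochondrially encoded and cytosolic ribosomal protein genes left out of the total these shares were 3.33, 3.68, 2.93 and 3.78% in the same order and 3.49% in cluster 22, so that cluster 22 turned from below to above control and the Mll3/4-labelled class from below to above the Mll3-labelled one. Nearly all Mll3/4-labelled cells of the class came from clusters 23 and 24 (1861 and 1512 cells), and those of the other libraries from clusters 0 and 15. Cells called G1 by cell-cycle genes made up 58.3% of control, 42.6% of Mll3-labelled, 33.8% of Mll4-labelled and 26.4% of Mll3/4-labelled cells of the class, and 74.2% of cluster 22. After thinning to 2000 UMIs per cell, which left out 68 of the 142 Mll4-labelled cells, these were 60.2, 47.0, 5.41, 38.2 and 84.8%.

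Against control, the median log2 ratio of the members in the Mll3/4-labelled class was 0.07 (-0.04 to 0.20). There were 5 members higher and 4 lower of 87 measured (5.75% and 4.60%), against 20.4% and 19.5% of all genes measured and 11.3% and 18.4% of those of at least 100 CPM. With trimmed-mean scaling 21 were higher and 2 lower, and the shares of all genes with that scaling were not counted. Uqcr11 (chr10:80402997-80406830, minus strand) stood at 178 CPM in control, 200 in Mll3-labelled, 256 in Mll4-labelled and 328 in Mll3/4-labelled cells (0.88 over control, 0.76 to 0.998), with pools at 179 and 179 CPM in control and 311 and 345 in the Mll3/4-labelled library. Ndufaf4 (chr4:24898083-24905001, plus strand) stood at 21.1 CPM in control, 23.9 in Mll3-labelled, 42.3 in Mll4-labelled (15 counts) and 39.3 in Mll3/4-labelled cells (0.87 over control, 0.53 to 1.22). Cox6b2 stood at 17.0, 20.1, 19.7 (7 counts) and 31.5 CPM in the same order (0.85, 0.48 to 1.25). In both Mll3/4-labelled pools these 3 were above each control and Mll3-labelled pool. Ndufa5, a subunit of the matrix arm of complex I, was higher by 0.65 and Uqcr10, a small subunit of complex III, by 0.51.

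Cox7a2l, which is known to bridge complexes III and IV in supercomplexes, was the lowest against control. It stood at 756 CPM in control, 641 in Mll3-labelled, 394 in Mll4-labelled and 414 in Mll3/4-labelled cells of the class (-0.87, -0.93 to -0.80). The pools gave 730.5 and 777.5 CPM in control and 444 and 383 in the Mll3/4-labelled library, which do not overlap. In control the B-cell progenitor-like class held the highest Cox7a2l of the named classes. In cluster 22 it stood at 682 CPM (-0.15, -0.21 to -0.09). It was thus below control in both sets of Mll3/4-labelled B-lineage cells, but past the fold only in the class. Ndufaf3, an assembly factor of complex I, stood at 60.4 CPM in control, 36.7 in the Mll3/4-labelled class (-0.71, -0.92 to -0.49) and 39.96 in cluster 22.

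**Figure D5:**
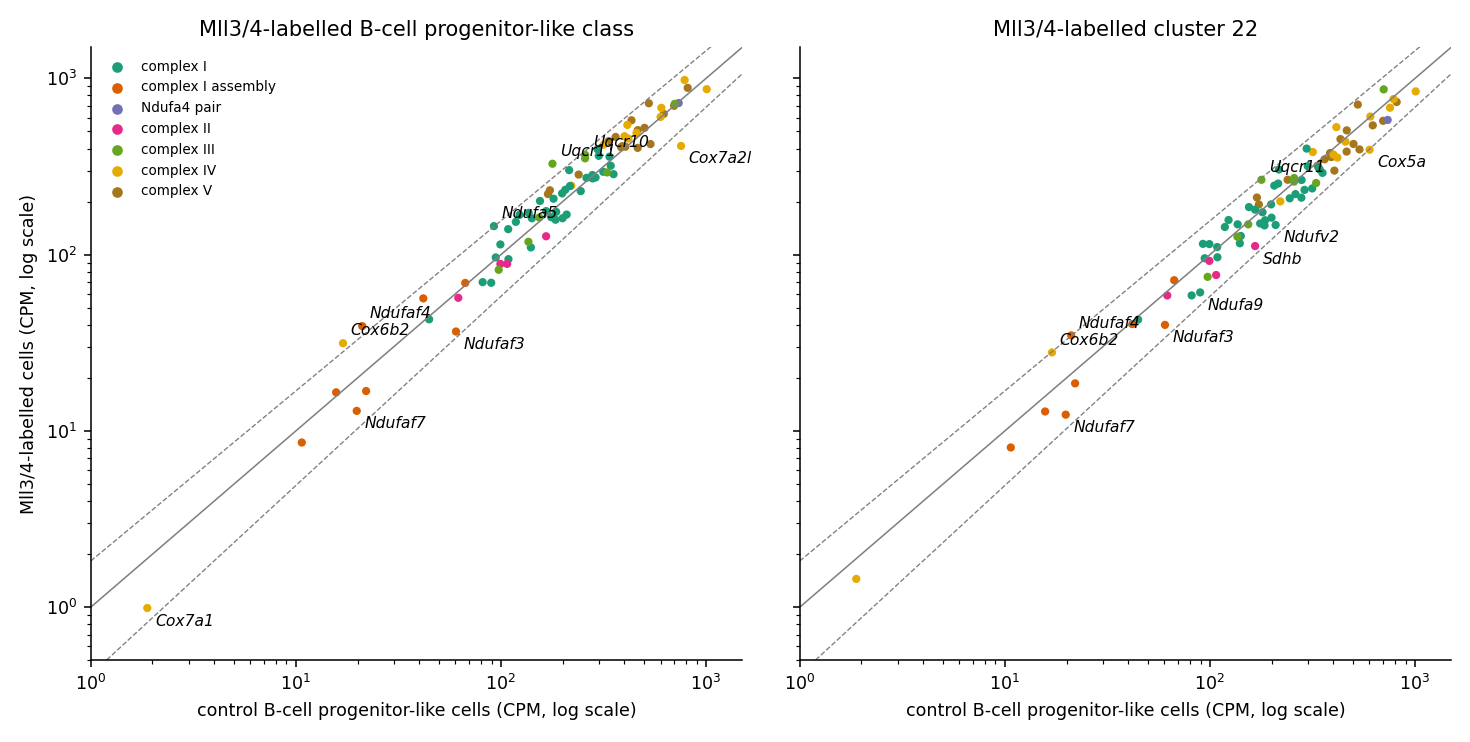
Level of each measured member in control B-cell progenitor-like cells (x axis, CPM, log scale) against its level in the Mll3/4-labelled class (left) or cluster 22 (right; y axis, CPM, log scale), coloured by complex, with a solid line at equal levels, dashed lines at the fold of 0.5 and names on the members past it. Uqcr11 lies above the lines in both panels, at 178 CPM in control, 328 in the class and 266 in cluster 22, and Cox7a2l lies below them in the left panel, at 756 and 414 CPM.

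In cluster 22 the same 3 members, Uqcr11, Ndufaf4 and Cox6b2, were higher as in the class. Its 12 B-cell progenitor markers summed to 16352 CPM with none at 0, against 11386 CPM in the Mll3/4-labelled class. The 10 T/NK/innate lymphoid markers summed to 1001 CPM, against 531 in that class and 348 in control B-cell progenitor-like cells. Of these markers 3 were at 0 in cluster 22 (Cd3e, Cd3g and Tcf7) and 3 in the control cells (Cd3e, Trbc2 and Rora). Il7r, which is on that list, was among the leading genes of cluster 22. Against control B-cell progenitor-like cells the median was -0.11 (-0.21 to 0.03), and it turned to 0.035 with mitochondrially encoded and cytosolic ribosomal protein genes left out of the total, to 0.028 over cells called G1 and to 0.0061 after thinning. There were 3 members higher and 6 lower of 87, against 26.7% and 19% of all genes and 14.8% and 28.3% of those of at least 100 CPM. Uqcr11 stood at 266 CPM, Ndufaf4 at 34.8 and Cox6b2 at 27.9, all above control. Cox5a stood at 394 CPM in cluster 22, against 600 in control and 605 in the Mll3/4-labelled class, and Sdhb was lower by 0.57 in size (-0.57). The list of 20 G2/M genes had a median of -3.78 in cluster 22 and -0.02 in the class, so the Mll3/4-labelled B-lineage sets differed in cell cycle as well. Over the cells of the class called G1, Uqcr11 was at 1.40 and Ndufaf4 at 1.41 above control, Cox6b2 at 0.21 and Cox7a2l at -1.27. The count rose from 5 to 23 members higher, with 3 lower. The share of all genes over these cells was not counted, so the rise cannot be set against it.

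Against the Mll3-labelled library, the median was -0.04 in the class, with 3 members higher and 4 lower (24.7% and 15.2% of all genes), but over cells called G1 it turned to 0.22, with 20 higher and 3 lower. It was also above 0 with trimmed-mean scaling (0.019), with the total without mitochondrially encoded and ribosomal protein genes (0.032), with the mean of the cells' shares (0.039) and after thinning (0.018). The median was -0.25 (-0.38 to -0.11) in cluster 22, with 1 higher and 11 lower (33% and 17.2% of all genes), and over cells called G1 6 were higher and 4 lower. Shares of all genes over cells called G1 were not counted, so the G1 counts of both sets stand without them. Joining the class with cluster 22, a choice made after the data were seen, gave 4 higher and 3 lower of 88 against control (21.7% and 17.7% of all genes) and 3 and 6 against the Mll3-labelled library (26.8% and 15%). In the class Uqcr11 was higher by 0.71, Ndufaf4 by 0.69 and Cox6b2 by 0.62 (turned to -0.42 over cells called G1), and Ndufaf3 (-0.84), Cox7a2l (-0.63) and Uqcrc1 (-0.51), a core subunit of complex III, were lower. Both contrasts share the Mll3/4-labelled cells, so they are not independent. Neutrophil markers summed to 2440 CPM in control, 1813 in Mll3-labelled, 6347 in Mll4-labelled and 50.9 in Mll3/4-labelled cells of the class, with 1 of 10 at 0 in each, and their part in the differences was not tested.

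Other lists are to be read against the 20.4% of all genes higher and 19.5% lower in the Mll3/4-labelled class against control. There, 6 of 19 glycolytic genes measured (31.6%) were higher and 1 was lower, among them Ldhb (2.61), a subunit of lactate dehydrogenase, and Pfkl (1.10), a phosphofructokinase, while Pdk1, which restrains entry of pyruvate into the citric acid cycle, was at -0.86. Of 84 cytosolic ribosomal genes 12 (14.3%) were higher and 1 lower, and of 78 mitochondrial ribosomal genes 1 was higher and 10 (12.8%) lower. All these lay below the shares of all genes. Among genes of at least 100 CPM 11.3% were higher and 18.4% lower, so the 14.3% of cytosolic ribosomal genes higher lay above that share. Also, 3 of 13 mitochondrially encoded genes were higher. Among regulators of mitochondrial genes, Myc (1.06) and the coactivator Ppargc1b (0.93) were higher and Tfb1m (-0.75), which modifies mitochondrial ribosomal RNA, was lower. Sco2, a copper chaperone for complex IV, was at 1.97 and Coa4, another assembly factor of that complex, at -0.95. In the citric acid cycle Suclg2 (1.73) and Idh3a (0.62) were higher and Fh1 (-0.60) was lower.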

How the data were processed

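Kit+ CD45.2+ bone marrow cells were read in 4 libraries, 1 per group. The deposited matrices hold UMI counts per gene and barcode; the authors made them with Cell Ranger 6.1.2 on mm10, per the submitters' processing notes, with no normalization. Gene UMIs totalled 174795636 in control, 161119914 in the Mll3-labelled, 36413830 in the Mll4-labelled and 86721050 in the Mll3/4-labelled library.

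Barcodes with at least 500 genes, 1000 UMIs and at most 10% mitochondrial UMIs were kept, and the highest Scrublet scores were removed as doublets at 0.8% per 1000 barcodes (5.29 to 8.01% per library). This left 7146, 5860, 5350 and 6917 cells; pairs of libraries shared 9 to 24 barcodes. Clustering used scanpy 1.11.5 on 2000 variable genes without the members, 30 components, 15 neighbours and Leiden resolution 1. Clusters were named from 108 markers of 12 classes.

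Counts were summed per library and class and scaled to CPM of all gene UMIs. Log2 ratios used a pseudocount of 1 CPM, which understates low genes, and intervals are exact at 95%. Members past a log2 ratio of 0.5 with at least 20 counts in either library were called; a symbol listed more than once used its row with more counts. Texts name up to 5 members per direction and class with at least 100 counts, the highest member per complex, isoform families, X-linked members and the most different genes of other lists; Sdhb, Sdhc, Sdhd, Uqcrq, Ndufb5, Atp5d and other members described by how many classes they differed in were chosen after their values were seen. Members and lists were chosen with earlier results of these data known. The calls were tried on simulated counts of HSC/MPP-like cells with counting error only. These held no other difference between libraries, so they do not check calls between single libraries. Alternatives covered scaling, filters, thinning, clustering, cell cycle and hashtags.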

Additional observations from a re-analysis of the deposited data

Results flagged for a closer look

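For 2 members the Mll4-labelled library lay past the fold above control in one cell class and below it in another, and the difference between the classes was not tested. Cox6b2 had a log2 ratio of 0.68 in monocyte/macrophage progenitor-like cells and -1.23 in basophil/mast-like cells, where the basophil/mast markers summed to 3832 CPM in control and 18023 CPM in Mll4-labelled cells. Ndufaf1 had 0.68 in cluster 11 and -0.55 in neutrophil-like cells.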

How the results depend on the processing

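No paired analysis was possible because each group had 1 library, which also leaves no replicate to leave out. Clustering with another resolution, another seed, without doublet removal or with the members among the variable genes gave no value for clusters 11 and 22, and comparisons left with under 50 cells gave none. Using the mean of the cells' shares, the control share of UMIs from the members was 2.02% in HSC/MPP-like, 2.29% in cluster 11, 2.61% in granulocyte progenitor-like, 2.55% in monocyte/macrophage progenitor-like, 1.35% in neutrophil-like, 2.91% in erythroid progenitor-like, 2.42% in megakaryocyte-like, 1.87% in basophil/mast-like and 2.25% in B-cell progenitor-like cells. With mitochondrially encoded and cytosolic ribosomal protein genes left out of the total it was 3.28, 3.72, 3.97, 3.99, 1.46, 4.46, 3.72, 2.97 and 3.33% in that order, and 2.94% in T/NK/innate lymphoid-like cells.

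With that total the median log2 ratio of the members was -0.31 in Mll4-labelled erythroid progenitor-like cells and 0.035 in cluster 22 against control. With trimmed-mean scaling it was -0.24 in HSC/MPP-like, -0.51 in granulocyte progenitor-like, -0.42 in monocyte/macrophage progenitor-like, -0.50 in erythroid progenitor-like and -0.36 in megakaryocyte-like cells of the Mll4-labelled library, 0.082 in Mll3-labelled erythroid progenitor-like cells and 0.22 in Mll3/4-labelled B-cell progenitor-like cells. Over cells called G1 it was -0.17 in neutrophil-like and -0.31 in erythroid progenitor-like cells of the Mll4-labelled library, -0.066 in Mll3-labelled erythroid progenitor-like cells, and 0.30 against control and 0.22 against the Mll3-labelled library in the Mll3/4-labelled B-cell progenitor-like class. Cluster 22 against the Mll3-labelled class was then at -0.0054, and the class joined with cluster 22 at 0.084. Cox6b2 against the Mll3-labelled class reversed over cells called G1, to -0.42. The cause was not tested.

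Of 682 counts of members past the fold under alternatives, 491 were within 1.5 times the main count and 191 were not. Shares of all genes were counted for the main setting only. At a log2 ratio of 1, 2 to 5 members were higher and 0 to 3 lower in the Mll4-labelled classes. The cells of single hashtags and the class joined with cluster 22 were added after the data were seen, and gave 6 to 20 higher and 9 to 28 lower in the Mll4-labelled classes by hashtag. Low counts limit the basophil/mast-like and T/NK/innate lymphoid-like classes and the assembly factors.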
